A study of Bos taurus with 6 samples.

Results

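Genes of inflammatory signalling were followed across all libraries of the series: the cytokine genes IL6 and IL18, the chemokine gene CCL17, the inflammasome sensor gene NLRP3, the NF-kB subunit genes NFKB1, NFKB2, RELA and RELB, and the granzyme gene GZMB. They were taken from the count table by symbol, and 9 of 10 listed symbols had a row among 12826 genes. NFKBIA was not analysed here. The symbols were selected on earlier results for these same libraries, those between BHB and control and, for GZMB, between pairs of libraries. Their values in those contrasts are therefore a description. Counts of calls there are printed beside the share of all genes called, and nothing is read from them. All 9 genes passed the filter on low counts, which left 12732 genes for testing.

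The libraries came from pools of Bos taurus blastocysts, collected at day 7 after in vitro production from slaughterhouse material. Control embryos (n = 3 libraries) were cultured without beta-hydroxybutyrate (BHB), a ketone body, and BHB embryos (n = 3 libraries) with it. The sources used here do not state dose, exposure time or pool size. The labels do not say whether the pools came from separate batches, and a p-value then speaks only of the spread among these 6 libraries, which may be technical. A pool holds trophectoderm, epiblast and primitive endoderm together, and fewer cells of a type and less RNA per cell cannot be told apart in it. Levels are in CPM (counts scaled to library size, with TMM factors). Gene lengths were not used, so levels are compared between libraries and not between genes.

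Totals ran from 6440732 to 8176648 counts per library. Of 13 blastocyst marker genes, 11 had a row, among them GATA3 and KRT8 of the trophectoderm, POU5F1 of the pluripotent cells and GATA6 of the primitive endoderm. Their summed level was 11030 to 17570 CPM in control and 8772 to 13830 CPM in BHB libraries. The keratin genes KRT8 and KRT18 gave most of this sum (means of 9117 and 3153 CPM), so it says little of the other markers. A refit of the authors' deposited p-values showed that their model had placed control and BHB libraries in 3 pairs by number (control 1 with BHB 1 and so on). Pairs are named below in that sense. The sources used here do not say what a pair shares.

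As background, NF-kB is a family of dimeric transcription factors held in the cytoplasm by inhibitor proteins until a kinase complex releases them. RELA with the NFKB1 product carries the canonical response, and RELB with the NFKB2 product the non-canonical one. IL6, IL1 family cytokines and many chemokines are among its targets, and so is the NLRP3 gene. NLRP3 protein assembles the inflammasome, in which caspase-1 cuts the IL18 precursor to its active form. In bovine embryos IL6 acts on the inner cell mass through its receptor and STAT3. BHB has been reported to block assembly of the NLRP3 inflammasome in macrophages, an effect on protein that RNA levels do not measure.

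The cytokine and sensor genes at the head of this group had higher mean levels with BHB, while the NF-kB subunits had similar means. The mean CPM with BHB over that in control was 1.71 for IL6, 2.06 for CCL17 and 1.78 for NLRP3, against 0.939 to 1.19 for NFKB1, NFKB2, RELA and RELB. In edgeR's quasi-likelihood test with Benjamini-Hochberg adjustment, 0 of 9 genes were called at 0.05, where 0 of 12732 genes (0%) were called in the whole table. At an unadjusted p under 0.05 stood 2 of the 9 (IL6 and CCL17) and 347 of all genes. The contrast helped to choose the genes, so nothing is read from these counts. DESeq2 and limma-voom also called 0 of the 9, where they called 6 and 0 genes in the whole table. In that fit DESeq2 gave no adjusted p for GZMB.

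**Figure D1:**
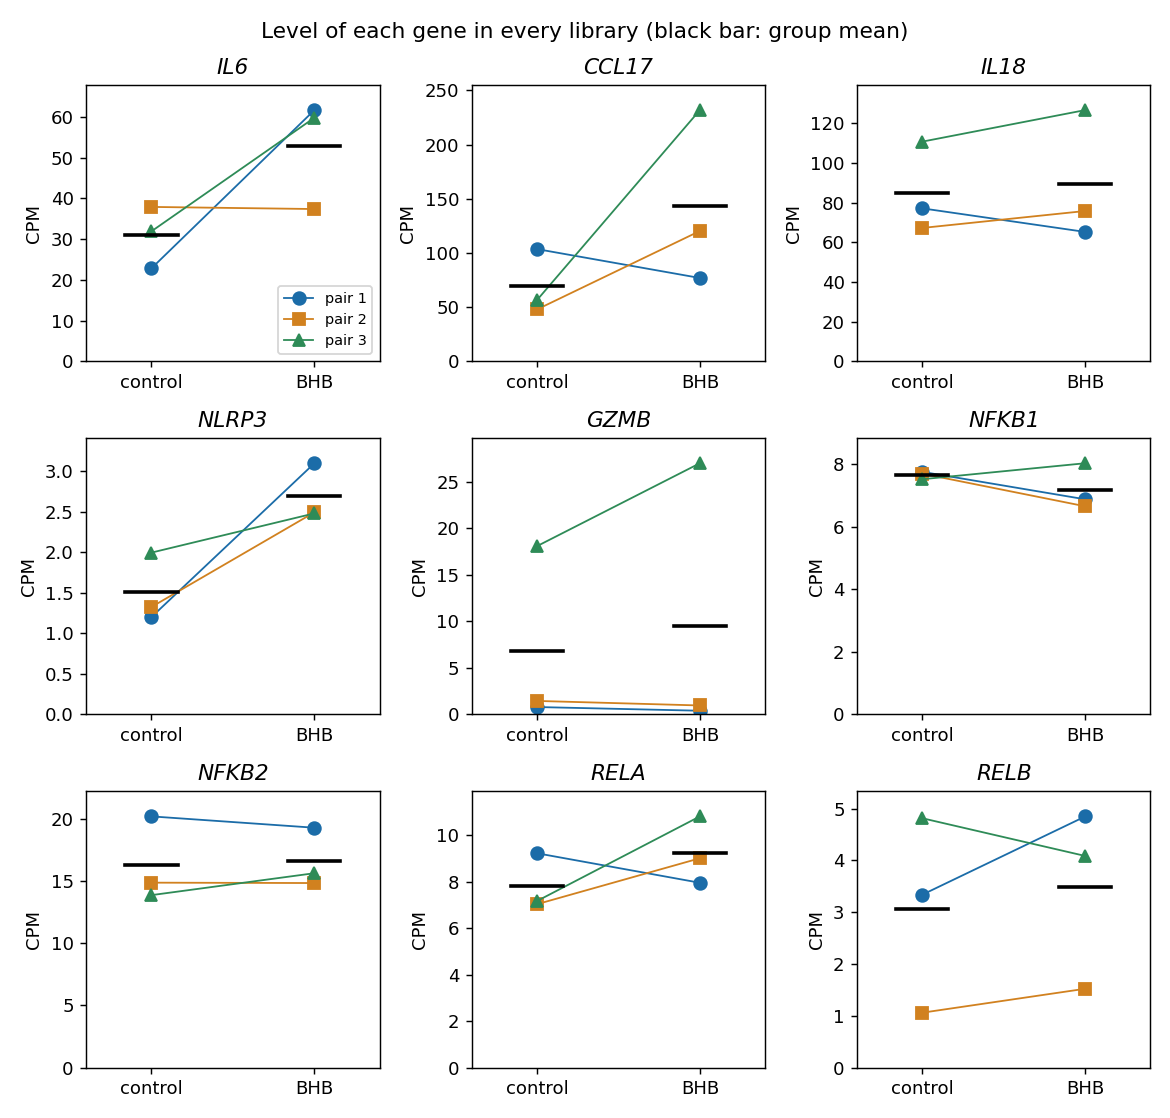
Level in CPM of each of the 9 genes in control and BHB libraries, with lines joining the libraries of a pair and black bars for group means. NLRP3 is the gene whose groups do not overlap, and GZMB is high in both libraries of pair 3 (18.1 and 27.0 CPM).

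IL6 was at 22.8, 37.9 and 31.9 CPM in controls 1 to 3 and at 61.7, 37.4 and 59.8 CPM in BHB 1 to 3. BHB libraries 1 and 3 lay above every control library, while BHB library 2 lay at the level of its control partner. The mean was 30.9 ± 7.59 CPM (SD, n = 3) in control and 53.0 ± 13.5 CPM (SD, n = 3) with BHB, a log2 fold change of 0.78 (SE 0.25). With the pair as a block the log2 fold change was 0.77 (SE 0.24). Within pairs the log2 differences were 1.42, -0.02 and 0.90, so the group difference came from pairs 1 and 3. Without pair 1 the blocked log2 fold change was 0.45 (SE 0.23), and without pair 2 it was 1.17 (SE 0.21).

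IL6 had 1867 counts over the 6 libraries. Counting error at its mean count was 5.67% and the spread within groups 25.1% (both as coefficients of variation), so the spread between libraries was larger than counting error.

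CCL17 encodes a secreted chemokine that attracts T cells through the receptor CCR4. It was at 104, 47.9 and 56.5 CPM in controls 1 to 3 and at 76.9, 120.3 and 232 CPM in BHB 1 to 3. BHB library 3 was the highest of all libraries, and the groups overlapped because control 1 exceeded BHB 1. Mean levels were 69.3 ± 30.0 CPM (SD, n = 3) in control and 143 ± 80.0 CPM (SD, n = 3) with BHB (log2 fold change 1.05, SE 0.40, and 1.00, SE 0.36, with the pair as a block). Pair by pair the log2 difference was -0.43, 1.33 and 2.03. Thus pair 1 went one way and pairs 2 and 3 the other.

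The CCL17 value rested on single libraries more than that of IL6. Without BHB library 3 its log2 fold change was 0.51 (SE 0.34), and without pair 1 the blocked value was 1.69 (SE 0.18). Its spread within groups was 50.0% against a counting error of 3.59%.

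NLRP3 had few counts: 9, 10 and 17 in controls 1 to 3, and 23, 18 and 17 in BHB 1 to 3. In CPM these were 1.20, 1.33 and 2.00 in control and 3.10, 2.49 and 2.48 with BHB. Each BHB library lay above each control library, and NLRP3 was the 1 of 9 genes whose groups did not overlap, against 7.84% of all tested genes. The mean was 1.51 ± 0.43 CPM (SD, n = 3) in control and 2.69 ± 0.35 CPM (SD, n = 3) with BHB (log2 fold change 0.82, SE 0.42, and 0.84, SE 0.46, with the pair as a block).

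The exact 95% Poisson intervals of single NLRP3 libraries overlapped between groups, at 1.16 to 3.20 CPM for control 3 and 1.44 to 3.97 CPM for BHB 3. These intervals cover counting error only. The spread of NLRP3 within groups, 22.1%, was below its counting error of 25.3%, so depth limits what its 94 counts can show. It was also the 1 gene of 9 with the same direction in 3 of 3 pairs, with log2 differences of 1.20, 0.79 and 0.28, against 30.3% of all tested genes.

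**Figure D2:**
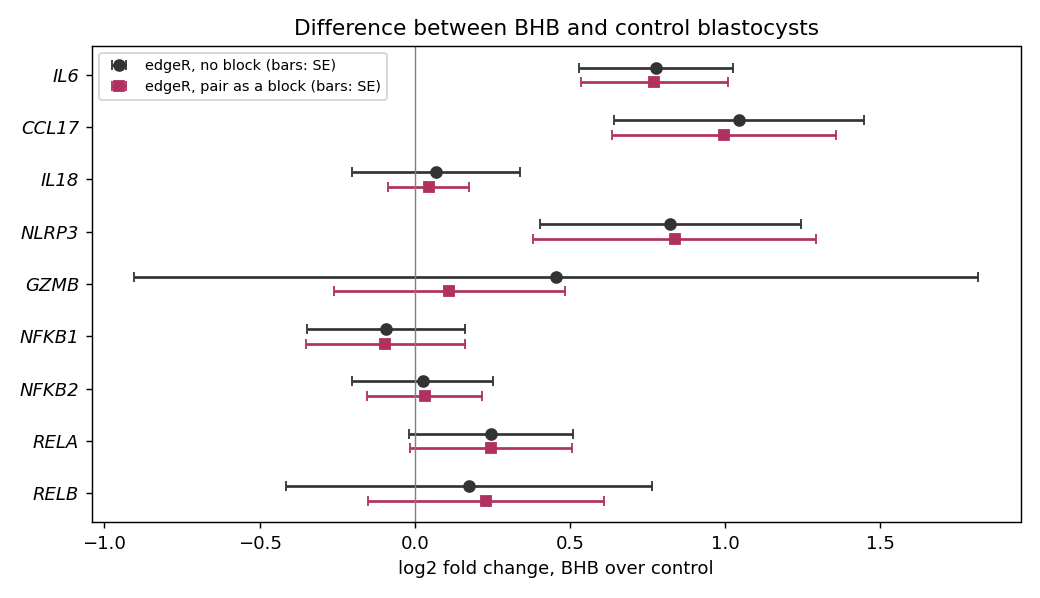
Log2 fold change of BHB over control with its standard error, from edgeR without a block and with the pair as a block. IL6, CCL17 and NLRP3 have estimates of 0.77 to 1.05 in both fits, and the error of GZMB is 1.36 without and 0.37 with the block.

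IL18, the cytokine that the inflammasome matures, had similar means in both groups. It was at 77.1, 67.2 and 111 CPM in controls 1 to 3 and at 65.2, 75.8 and 127 CPM in BHB 1 to 3. Both libraries of pair 3 stood above the other 4, which lay close together. Means were 85.0 ± 22.8 CPM (SD, n = 3) and 89.2 ± 32.9 CPM (SD, n = 3), with a log2 fold change of 0.07 (SE 0.27). With the pair as a block it was 0.04 (SE 0.13), and it turned to -0.27 without BHB library 3.

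The NF-kB subunit genes had similar means in both groups. NFKB1, which encodes the precursor of p50, was at 7.75, 7.69 and 7.51 CPM in controls 1 to 3, and 6.87, 6.65 and 8.02 CPM in BHB 1 to 3. Its libraries spanned 1.21-fold in all, the narrowest range of the 9 genes, and its spread within groups (7.36%) was below counting error (13.4%). The log2 fold change was -0.09 (SE 0.26).

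RELA, the main activating subunit, was at 9.22, 7.03 and 7.16 CPM in control and 7.95, 9.00 and 10.8 CPM in BHB libraries. Groups overlapped, and means were 7.80 ± 1.23 and 9.25 ± 1.44 CPM (SD, n = 3 each; log2 fold change 0.24, SE 0.27). As with CCL17, the BHB library was the lower of the 2 in pair 1 and the higher in pairs 2 and 3 (log2 differences -0.21, 0.35 and 0.575).

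NFKB2, the precursor of p52, was at 20.2, 14.9 and 13.9 CPM in control and 19.3, 14.8 and 15.6 CPM in BHB libraries, highest in both libraries of pair 1. Its means of 16.3 ± 3.40 and 16.6 ± 2.37 CPM (SD, n = 3 each) gave a log2 fold change of 0.03 (SE 0.23). RELB, the partner of p52, was at 3.34, 1.06 and 4.81 CPM in control and 4.85, 1.52 and 4.09 CPM in BHB libraries. Both libraries of pair 2 were the low ones, with 8 and 11 counts. Its means were 3.07 ± 1.89 and 3.49 ± 1.74 CPM (SD, n = 3 each; log2 fold change 0.17, SE 0.59).

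With the pair as a block, edgeR called 0 of the 9 genes and 0 of 12732 genes (0%) between BHB and control. DESeq2 with the same block also called 0 of the 9, where 0.359% of the genes with an adjusted p were called (36 of 10016). DESeq2 gave no adjusted p for NLRP3 and RELB, whose counts were low.

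Pair, not treatment, went with the widest range of any gene here. GZMB, which encodes a serine protease of cytotoxic granules that is best known from T and natural killer cells, had 154 counts in control 3 and 185 in BHB 3, and 6, 11, 3 and 7 in control 1, control 2, BHB 1 and BHB 2. In CPM, controls 1 to 3 were at 0.801, 1.46 and 18.1 and BHB 1 to 3 at 0.404, 0.969 and 27.0. Of its 366 counts, 339 (92.6%) lay in the 2 libraries of pair 3, whose mean CPM was 24.8 times that of the other 4 libraries. By the difference in log2 CPM between pair 3 and the other libraries, GZMB ranked 1 of 12732 genes. Its choice with differences between pairs known can set this rank, so nothing is read from it.

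Between treatments GZMB had means of 6.78 ± 9.79 and 9.45 ± 15.2 CPM (SD, n = 3 each). The log2 fold change was 0.46 (SE 1.36) without and 0.11 (SE 0.37) with the block. It turned to -3.29 without BHB library 3 and went to 3.04 without control library 3 (in each case with 1 library of pair 3 left). Granzymes and related proteases form a family of similar genes, and the sources used here do not say how reads with several matches were counted, so the level of GZMB is uncertain.

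**Figure D3:**
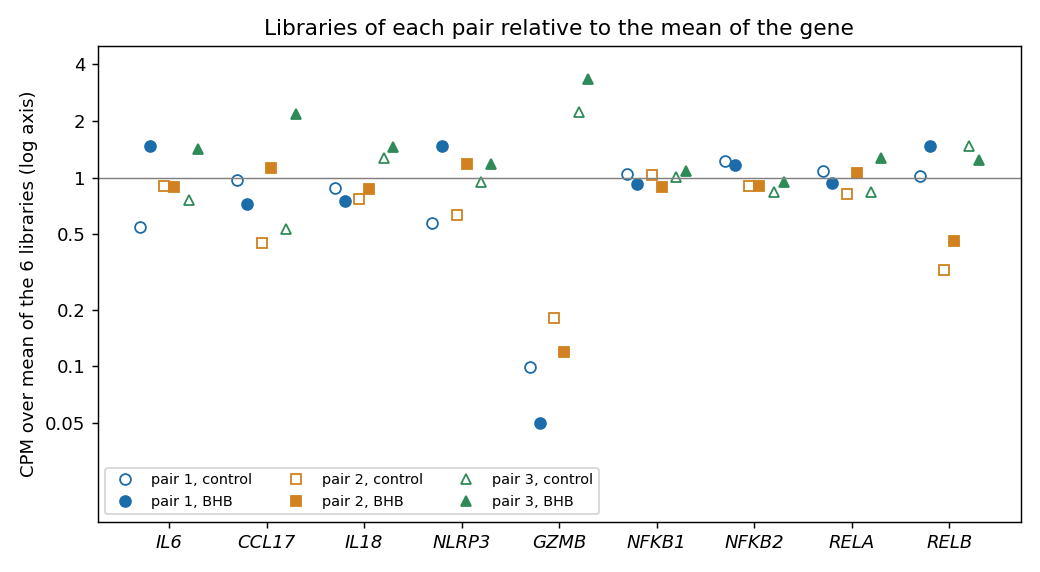
CPM of each library over the mean of the gene, on a log axis, for control (open) and BHB (filled) libraries of each pair. Both libraries of pair 3 are high for GZMB and IL18, and both libraries of pair 2 are low for RELB (1.06 and 1.52 CPM).

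Differences between pairs were tested with treatment in the model. In the whole table edgeR called 4.12% of genes (524 of 12732). GZMB was chosen with its difference between pairs in view, and the filter on low counts removed it when pair 3 was left out. No test of it is therefore given. Of the other 8 genes, IL18 was called. It was 1.66 times as high in pair 3 as in the other libraries (adjusted p = 0.034), in 2 of 2 libraries. The earlier results used to choose IL18 may have held differences between pairs, so its values here are a description too. Its call was lost without BHB library 3 (adjusted p = 0.119) and without pair 1 (adjusted p = 0.0519), and without pair 3 its adjusted p was 0.977.

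The remaining 7 genes were not called between pairs with all libraries. RELB had adjusted p = 0.114, NFKB2 0.392 and CCL17 0.563. CCL17 passed without control library 1, control library 3 or BHB library 1 (adjusted p = 0.0253, 0.0251 and 0.0292). IL6, NLRP3, NFKB1 and RELA had adjusted p of 0.875 to 0.959.

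The authors' deposited table gave an adjusted p of 0.00815 for IL18, and of 0.179 for IL6, 0.838 for CCL17 and 1 for NLRP3. There, 646 of 12826 genes (5.04%) had an adjusted p under 0.05. The refit showed that this p tests pair and treatment together against a model with neither. The log2 fold change of IL18 beside it in the authors' deposited table, with the sign turned to BHB over control, was 0.04. A small p there thus stood beside a small difference between treatments.

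Markers of blood cells were read beside GZMB. Of 27 leukocyte markers, 4 had a row (CD53, CD68, IL2RB and IL2RG), and PTPRC, CD3E and the other 21 were not analysed here. The summed level of the 4 was 13.85 and 19.4 CPM in control 3 and BHB 3. In the other 4 libraries it was 12.99 to 26.2 CPM. IL2RB gave most of this sum (mean 11.5 CPM), and its level in pair 3 was 0.631 times that in the other libraries. For CD53, CD68 and IL2RG the same ratio was 1.24, 1.08 and 1.36. By treatment, the summed level was 12.99 to 26.2 CPM in control and 18 to 22.2 CPM in BHB libraries. None of the 4 was at 0 in any library. CD68, a macrophage marker, was at 1.90 ± 0.51 CPM in control and 2.61 ± 0.17 CPM with BHB (SD, n = 3 each; log2 fold change 0.45, SE 0.41). It was the 1 of these 4 markers whose groups did not overlap, against 7.84% of all tested genes. CD68 was named after its values were seen, so nothing is read from this. The other 3 went different ways, with log2 fold changes of -0.64 (SE 0.54) for CD53, -0.06 (SE 0.43) for IL2RB and 1.04 (SE 0.51) for IL2RG, and their groups overlapped. The part of these markers in the NLRP3 and GZMB values was not tested.

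Of 10 blastocyst markers tested, edgeR called 3 between pairs, against 4.12% of all genes tested. These were KRT8, KRT18 and PDGFRA (adjusted p = 0.00706, 0.0169 and 0.0225). In pair 3, where GZMB and IL18 were high, the mean of the keratin genes KRT8 and KRT18 was 0.628 and 0.672 times that in the other libraries. The other trophectoderm markers tested did not share this: the ratio was 0.954 for GATA3, 0.985 for CDX2, 1.22 for GATA2 and 1.27 for TFAP2C. PDGFRA, a marker of the primitive endoderm, was lowest in pair 1, with means of 49.2, 102.5 and 87.7 CPM in pairs 1 to 3. NANOG, a gene of the epiblast, was at 68.8 ± 7.04 CPM in control and 38.4 ± 11.1 CPM with BHB (SD, n = 3 each). It was lower in 3 of 3 pairs, where 30.3% of all tested genes had the same direction in all pairs. DESeq2 with the block called it (adjusted p = 0.0085), where 0.359% of the genes with an adjusted p were called. EdgeR did not, with the block (adjusted p = 0.183) or without it (adjusted p = 0.999). NANOG was named after its values were seen, so nothing is read from its call or direction. The part of these markers in the values of IL6, IL18 and GZMB was not tested.

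Among partners of granzyme B, 6 of 16 listed genes had a row, and the pore-forming protein gene PRF1 was not analysed here. Their summed level was 150.1 to 178.6 CPM over the 6 libraries, with 155.4 and 169.9 CPM in pair 3. SERPINB6 and CTSC gave most of the sum (means of 64.4 and 40.6 CPM). Gene by gene, the mean in pair 3 was 0.826 (IGF2R) to 1.34 (SRGN) times that in the other libraries. SERPINB9, the inhibitor of granzyme B, was at 1.20, 3.45 and 2.35 CPM in controls 1 to 3, and 1.62, 3.60 and 3.65 CPM in BHB 1 to 3, lowest in both libraries of pair 1. EdgeR called none of these 6 genes between pairs, where 4.12% of all genes were called, or between treatments, where 0% were.

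Cumulus and granulosa cells, which surround the oocyte and can also make IL6, were described by 15 markers, of which 5 had a row. Their summed level was 124.9 to 165.8 CPM in control and 100.1 to 153.8 CPM in BHB libraries. In the 2 libraries with the most IL6 it was 153.8 CPM (BHB 1) and 100.1 CPM (BHB 3). Of the 5 genes, 4 had a negative log2 fold change and 1 a positive one (CYP19A1, 0.31, SE 0.265). HAS2 and PTX3, induced in cumulus cells, were not analysed here. HSD3B1, which the trophoblast also expresses, gave most of the sum, so the sum says little of cumulus cells. The part of these cells in the IL6 values was not tested.

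The wider pathways were described by lists. For all genes tested, the median log2 fold change was -0.005, with 6254 positive and 6478 negative. The 9 genes had a median of 0.24 with 8 positive, which their choice with results known can set. The median of each of the 8 pathway lists changed sign in 1 to 3 of 11 alternatives, so no direction is read from them. None of the lists below had a gene called by edgeR between BHB and control, with or without the block.

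Receptor and signalling genes of the IL6 family had 16 of 25 members tested, 7 positive and 9 negative (median -0.03, and 0.04 when scaled by library size alone). IL6R, the ligand-binding chain, was at 18.7, 41.2 and 42.0 CPM in control and 29.9, 42.4 and 42.6 CPM in BHB libraries, lowest in pair 1 (adjusted p = 0.0829 between pairs). IL6ST, the shared signalling chain gp130, was at 138, 174 and 219 CPM in control and 117, 189 and 168 CPM with BHB (log2 fold change -0.17, SE 0.22). For STAT3 the log2 fold change was -0.05 (SE 0.15), and for its target SOCS3, a feedback inhibitor, 0.10 (SE 0.48). ADAM10, a protease that sheds IL6R among other substrates, was at 378 ± 12.4 and 337 ± 14.4 CPM (SD, n = 3 each; log2 fold change -0.17, SE 0.12). It was the 1 of the 16 genes whose groups did not overlap, a share near the 7.84% of all tested genes.

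Inflammasome and pyroptosis genes had 10 of 23 members tested, 3 positive and 7 negative (median -0.04, and 0.03 when scaled by library size alone). CASP1, the protease that cuts IL18, was at 1.64 ± 0.66 and 0.99 ± 0.54 CPM (SD, n = 3 each; log2 fold change -0.72, SE 0.60). NEK7, a partner of NLRP3, was at 54.5 ± 4.46 and 53.8 ± 4.80 CPM (SD, n = 3 each). SUGT1, a co-chaperone of NLR proteins, was at 156 ± 7.26 and 155.5 ± 26.6 CPM (SD, n = 3 each). PYCARD, GSDMD and IL1B were not analysed here.

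NLRP3 has relatives, of which 3 of 16 listed were tested. NLRP12 was at 37.3 ± 1.12 and 43.3 ± 6.25 CPM (SD, n = 3 each; log2 fold change 0.22, SE 0.16). It was the 1 of these 3 genes whose groups did not overlap, against 7.84% of all tested genes, and nothing is read from this. NLRX1, a mitochondrial member, lay at -0.58 (SE 0.33) on the log2 scale. NLRP14, an oocyte gene, lay at 0.24 (SE 0.43).

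In the NF-kB signalling list 33 of 35 genes were tested, 18 positive and 15 negative (median 0.01). The kinase genes CHUK, IKBKB and IKBKG, which form the complex that releases NF-kB, had log2 fold changes of 0.16 (SE 0.14), 0.05 (SE 0.18) and -0.19 (SE 0.16). REL, another subunit of NF-kB, was at 7.03 ± 3.22 and 6.13 ± 0.55 CPM (SD, n = 3 each). The ubiquitin-conjugating genes UBE2N and UBE2V1 were the most abundant by CPM and had log2 fold changes of -0.06 (SE 0.12) and 0.17 (SE 0.15). Groups did not overlap in 2 of the 33, CHUK (higher) and TBK1 (lower), a share near the 7.84% of all genes tested.

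NF-kB targets had 21 of 36 genes tested, 11 positive and 10 negative (median 0.05). PLAU, the urokinase gene, was at 872.8 ± 267.5 CPM in control and 539 ± 111 CPM with BHB (SD, n = 3 each). DESeq2 with the block called it lower with BHB (adjusted p = 0.000131), where 0.359% of the genes with an adjusted p were called. EdgeR did not call it, with the block (adjusted p = 0.0922) or without it (adjusted p = 0.999). The list was chosen with earlier results known, so nothing is read from this call. Between pairs PLAU differed in edgeR's test (adjusted p = 0.0231). PTGS2, which encodes a prostaglandin synthase, was at 1970.0 ± 261 and 2168 ± 846 CPM (SD, n = 3 each). Between pairs edgeR called 2 of the 21, PLAU and IL1A, against 4.12% of all genes.

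IL1A, an alarm cytokine, was at 6.01, 0.928 and 4.81 CPM in control and 4.85, 0.969 and 7.59 CPM in BHB libraries (adjusted p = 0.0289 between pairs). Like RELB, it was lowest in both libraries of pair 2. TNFAIP3, the NF-kB inhibitor A20, was also lowest there (4.94, 1.06 and 3.64 CPM in control and 2.96, 1.11 and 2.63 CPM with BHB), without passing (adjusted p = 0.141 between pairs). These last genes were set beside RELB after their values were seen.

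In the list of IL1 and IL18 receptors and adaptors, 12 of 26 genes were tested, 5 positive and 7 negative (median -0.14, and 0.01 without control library 1). IL18R1 and IL18BP, the receptor of IL18 and its soluble inhibitor, were not analysed here. IL1RN, the IL1 receptor antagonist, was at 48.7 ± 0.73 and 53.7 ± 4.31 CPM (SD, n = 3 each; log2 fold change 0.14, SE 0.14), and the adaptor TOLLIP had a log2 fold change of 0.14 (SE 0.17).

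Of 40 chemokine and receptor genes beside CCL17, 11 were tested, 4 positive and 7 negative (median -0.05, and 0.01 when scaled by library size alone). CCR4, the receptor of CCL17, was not analysed here. CCL22, the other ligand of CCR4, was at 12.6, 5.17 and 3.29 CPM in control and 10.4, 1.94 and 10.5 CPM in BHB libraries, with no common order with CCL17 (log2 fold change 0.12, SE 0.64).

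CCL28, a chemokine of epithelia, was at 89.2, 203 and 199 CPM in control and 122, 251 and 604 CPM in BHB libraries. Like CCL17 it was highest in BHB library 3, and unlike CCL17 it was low in both libraries of pair 1. Its log2 fold change was 0.99 (SE 0.51) and it was called between pairs (adjusted p = 0.014). XCL1 was at 9.35, 22.1 and 64.8 CPM in control and 2.96, 39.3 and 15.6 CPM in BHB libraries, with no order by treatment.

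**Figure D4:**
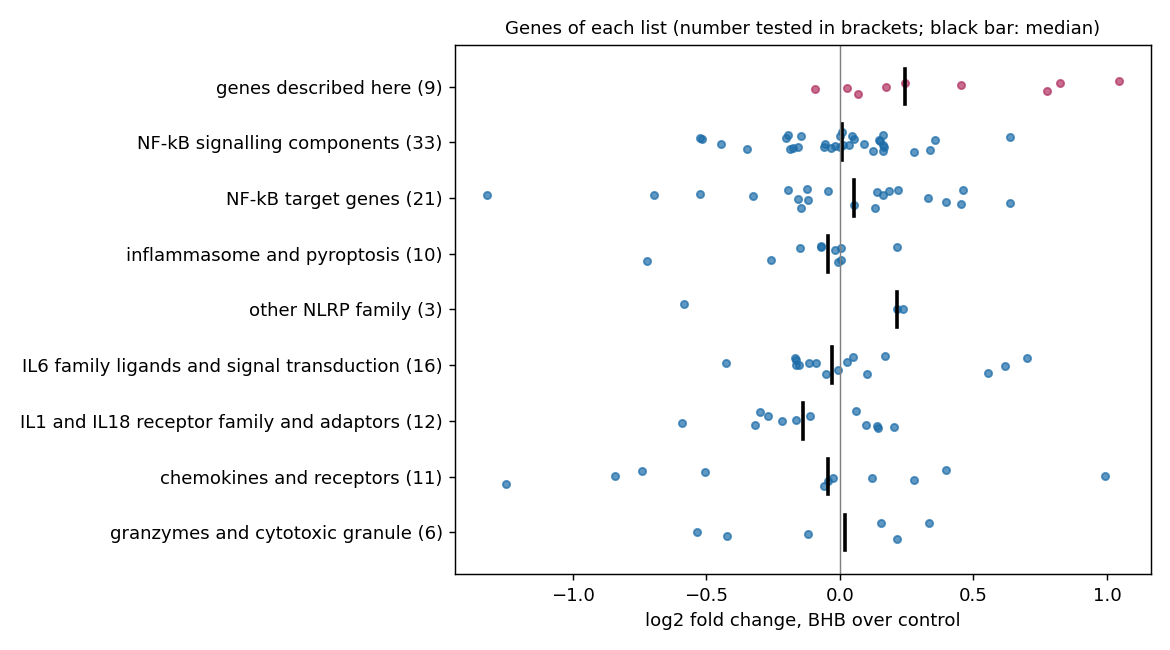
Log2 fold change of BHB over control for each tested gene of each list, with the list median as a black bar. The medians of the pathway lists lie between -0.14 and 0.22, and the 9 genes described here have a median of 0.24.

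Profiles most like those of 4 genes were found by the root mean square difference of centred log2 CPM over the 6 libraries, among 11550 genes. These are a description, with no test. For IL6 they were PTPDC1, MOSMO and SLC12A8 (0.12, 0.137 and 0.155 log2 units, where IL6 itself varied by 0.497). NLRP3 was closest to THAP7, B3GNT7 and CD40 (0.0471, 0.077 and 0.0933, against 0.435). With 94 counts and a counting error of 25.3% for NLRP3, which genes come nearest to it is uncertain. CD40, a receptor that activates NF-kB, was at 3.74, 3.98 and 5.05 CPM in control and 7.81, 6.09 and 6.27 CPM in BHB libraries.

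For CCL17 the nearest were LAMA2, DNAJC12 and IGSF9B (0.176, 0.245 and 0.348, against 0.752). No gene came close to GZMB: the nearest, VNN2, PLA2G7 and RSAD2, differed by 1.06, 1.15 and 1.15 log2 units, where GZMB varied by 2.09. PLA2G7, a secreted phospholipase gene, was at 6.28, 4.11 and 25.7 CPM in control and 6.87, 1.25 and 47.3 CPM in BHB libraries, high in pair 3 as GZMB was. RSAD2, an interferon-induced antiviral gene, was at 1.47, 0.53 and 6.69 CPM in control and 0.269, 0.139 and 3.06 CPM in BHB libraries.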

How the data were processed

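The authors deposited a table of whole-number counts per gene for 6 libraries (stranded, polyadenylated RNA, paired ends, 1 lane, per the labels' protocols) and a table of their comparison. STAR, featureCounts and DESeq2 were used, per the submitters' processing notes. The sources used here give neither their versions nor the genome build, annotation or strand setting. No coordinates are printed. In the authors' deposited table the mean is a signal on a linear scale, with a log2 fold change (control over BHB) and its error, a test statistic (score) and p-values before and after adjustment.

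Samples were grouped by treatment and numbered within groups in order of accession. Counts were fitted with edgeR 4.0.16 (R 4.3.3; TMM, filterByExpr, quasi-likelihood F test, Benjamini-Hochberg at 0.05) over all genes, and tested on simulated data. DESeq2 1.42.0 and limma 3.58.1 (voom) were alternatives. SE is the log2 fold change over the root of F. The filter removed 94 genes. No gene totalled under 38 counts.

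DESeq2's likelihood ratio test of pair and treatment against neither returned, for 1 pairing, 99.98% of the deposited p-values to a tolerance of 1e-06 and at most 0.398% for the other 5. Deviations from group means correlated at 0.462, 0.322 and 0.329 across genes within pairs 1 to 3. The labels do not state this pairing. The fit without the block was kept as the main one.

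The members and gene lists were chosen with earlier results of these data known. Named beside the members are direct partners, the 2 genes of each list with the highest mean CPM, list genes called in a test, and the 3 nearest profiles (log2 CPM, prior count 2, mean of at least 0). Genes outside this rule, such as CD53, CD68, NLRP14, TBK1 and NANOG, were chosen after their values were seen. A marker of the leukocyte list is not reported here and was left out of its sum.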

Additional observations from a re-analysis of the deposited data

How the results depend on the processing

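Between BHB and control, edgeR called 0 genes with DESeq2 size factors, library size alone, no filter and a filter of 1 CPM in 3 libraries, and so did limma-voom. That filter kept all 12826 genes and was thus no test of filtering. A filter of 5 CPM in 3 libraries, added after seeing the data, also gave 0 and kept 6 of the 9 genes. DESeq2 called 6 genes, DESeq2 with the replicate block 36, and edgeR with the replicate block 0. Leaving out 1 library gave 0 to 1 genes. Without pair 1, 2 or 3 (added after seeing the data) the blocked edgeR fit called 4, 16 and 4. CCL17 was among them without pair 1 (adjusted p = 0.0172) and IL6 without pair 2 (adjusted p = 0.027). Each of these fits left out the pair with the lowest log2 difference for that gene. Both genes were chosen with this contrast known, so nothing is read from these calls.

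Between pairs, the count was 258 with no treatment term, 300 to 1076 when 1 library was left out (lowest without control 1, highest without BHB 3), and 63 without pair 1. The causes were not tested.

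The direction of IL6, CCL17, NLRP3, NFKB1 and RELA held in every alternative with a value for the gene. That of IL18, NFKB2, RELB and GZMB turned in 4, 4, 2 and 5 alternatives. NLRP3, RELB and GZMB were not fitted under the filter of 5 CPM. Of 158 refitted values of the 9 genes, 153 moved by less than 1 SD between libraries. Depth limits NLRP3 and NFKB1, whose counting error exceeded the spread within groups; for the other 7 genes that spread was the larger. Fits that leave out 1 library keep its partner and so mix pair with treatment.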
